A study of Mus musculus with 6 samples.

Results

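The nuclear-encoded subunits of the respiratory chain and ATP synthase were examined in mouse medulloblastomas that had lost Crebbp. The genes were taken by symbol from the array annotation, as names that begin with Nduf and a subunit letter and digit (without Ndufa4l2), Sdha to Sdhd, Uqcr, Cox4 to Cox8 or Atp5. Of 22180 genes tested, 79 matched, each read from 1 feature (a probe set of the array). They comprised 31 genes of complex I, 4 of complex II, 7 of complex III, 18 of complex IV and 17 of complex V, and 2 pseudogenes that the symbols also take (Uqcrh-ps1 and Atp5c1-ps). Ndufa4 was placed in complex IV, where its protein is found. A further 10 array features carry several gene symbols, of which at least 1 is a subunit gene, and they were not used.

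RNA from 6 tumours was measured on Affymetrix whole-transcript arrays, 1 array per tumour. The 3 knockout tumours had the genotype Math1Cre::CrebbpFl/FlSmoM2Fl/+, and the 3 wild type tumours Math1Cre::SmoM2Fl/+. Both groups carry SmoM2, a Smoothened allele that keeps Sonic hedgehog signalling on, and in both every mouse was given 1 mg of tamoxifen at postnatal day 5 and tumours were taken from animals with clear growth at postnatal day 60, as the treatment protocol states. The age label of every sample reads postnatal day 5, which is taken here as the day of induction. The recombinase is tamoxifen-dependent and driven by Math1 (Atoh1), which is active in granule neuron progenitors of the cerebellum, so cells of other lineages in the tumour keep Crebbp. Crebbp encodes a histone acetyltransferase that is a coactivator of CREB and many other transcription factors. Whether tumours of 1 genotype are from different animals or litters is not stated, and the p-values measure the spread between these 6 tumours only.

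Complexes I to IV sit in the inner mitochondrial membrane and pass electrons from NADH and succinate to oxygen, while complexes I, III and IV pump protons across the membrane. Complex V, the ATP synthase, lets the protons return and makes ATP. Each complex except complex II is assembled from subunits of both the nuclear and the mitochondrial genome, and many of the nuclear genes are known targets of the transcription factors NRF1, GABPA and YY1. Granule neuron progenitors and Sonic hedgehog medulloblastomas are known for aerobic glycolysis, and oxidative metabolism increases as granule neurons mature.

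All levels are log2 values, and a change is the knockout mean less the wild type mean of these. No subunit gene rose or fell past an adjusted p of 0.05 (0 of 79 by limma, where 0.207% of all genes passed, 0.126% higher and 0.0812% lower). The lowest adjusted p was 0.201, for Ndufa3. At an unadjusted p under 0.05 there were 9 genes, or 11.4%, against 13.8% of all genes, of which 8 were higher in the knockout (10.1%, against 7.24% of all genes) and 1 lower (1.27%, against 6.51%). In 15 of the 79 the 3 knockout values lay all above or all below the 3 wild type values, which was 19.0% against 19.6% of all genes. Of these 15, 13 were higher in the knockout (16.5%, against 10.2% of all genes) and 2 lower (2.53%, against 9.43%). Over both directions neither share lay above that of all genes, while in the higher direction alone both did.

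The changes were small in size. They ran from -0.43 for Ndufb10 to 0.40 for Ndufa3, and none exceeded 0.5 in either direction, which 4.27% of all genes did. Changes beyond 0.25 were seen in 11 subunit genes, or 13.9%, against 19.5% of all genes. The 95% interval of the change lay within 0.5 on either side of 0 in 66 of 79 genes (70.2% of all genes), and within 1 in all of the 77 protein-coding genes. A change of 1 log2 unit in either direction thus lay outside the interval of each of the 77, for the 1 feature used per gene. These intervals are per gene, with 3 tumours a group, and are not adjusted for their number. In Atp5d, Ndufa8, Ndufa12 and Atp5e, a second feature that was not used had changes of -1.61, -0.96, -0.73 and -0.54. In the other genes with 2 features, the change of the second lay within 0.5 on either side of 0.

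More changes were positive than negative. Of the 79 genes, 53 were positive and 26 negative (50.9% of all genes were positive), with a median of 0.05 against 0.00 over all genes. The number of positive changes was 48 when arrays were centred on the median of all genes and 50 when quantile normalization was repeated, with medians of 0.02 and 0.05. The medians were 0.06 in complex I, 0.14 in complex II, 0.04 in complex III, 0.03 in complex IV and 0.06 in complex V. That of complex IV was -0.0021 with knockout replicate 1 left out and -0.0086 with wild type replicate 2 left out. The plot of all changes shows that the 95% intervals of most genes include 0.

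**Figure D1:**
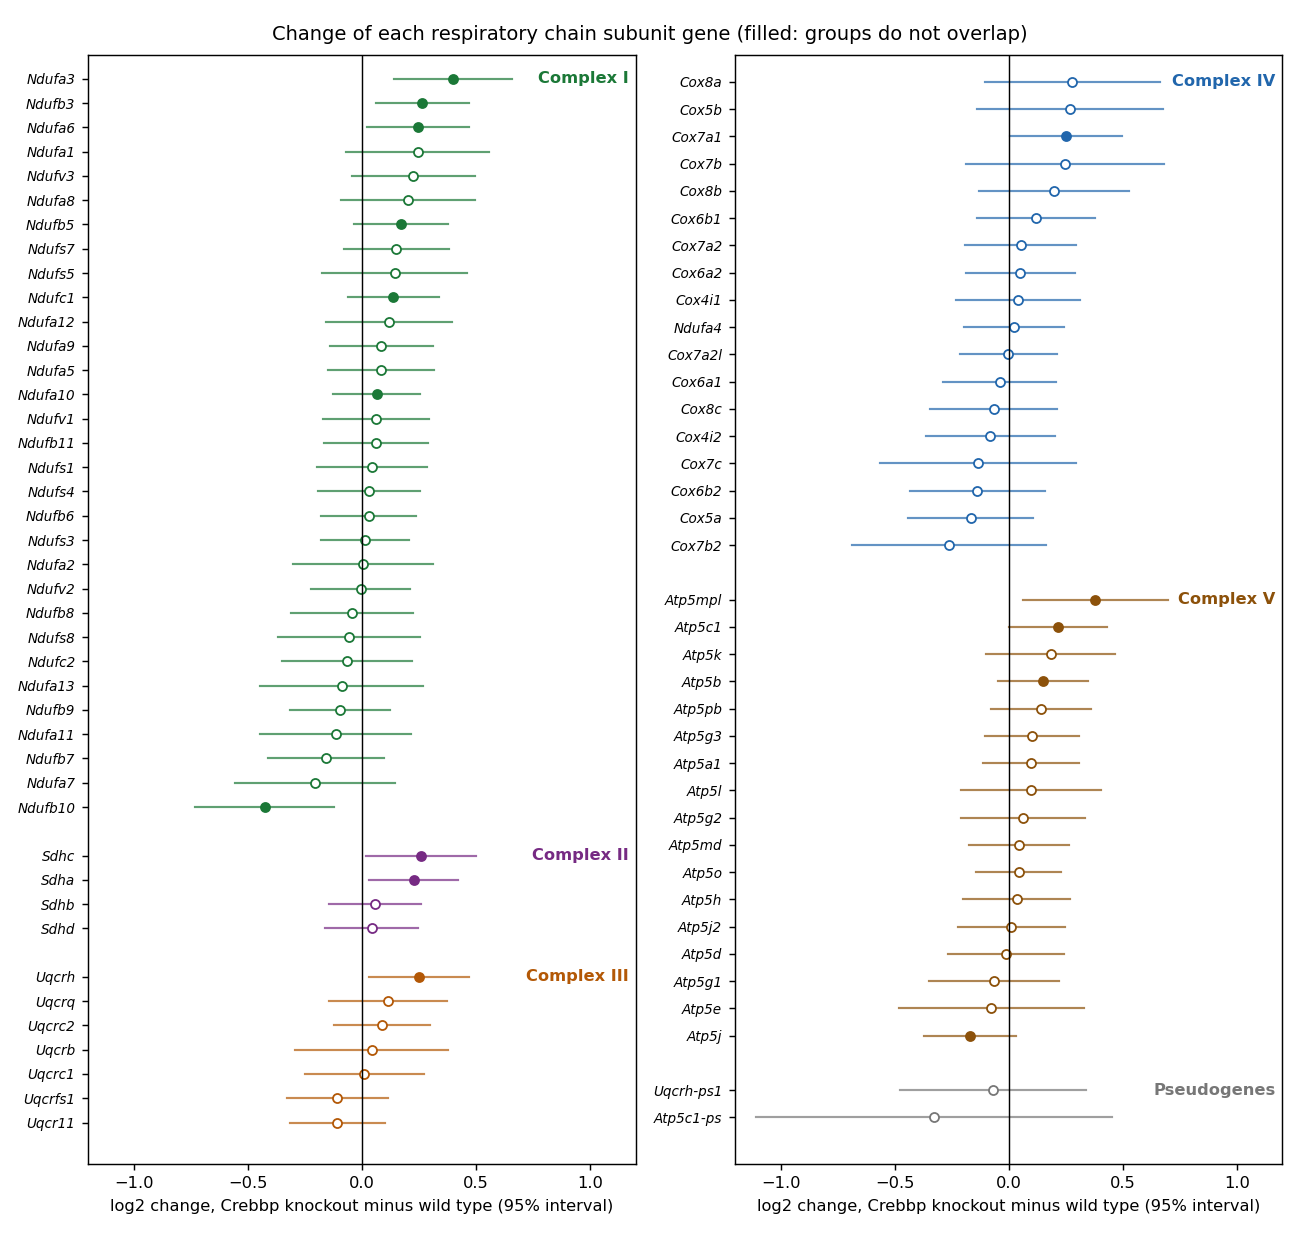
Log2 change (Crebbp knockout minus wild type, n = 3 tumours each) of the 79 genes, grouped by complex and ordered by size, with the 95% interval of limma as a line. Filled points are the 15 genes whose groups do not overlap, and they lie between 0.07 and 0.40 or, for Atp5j and Ndufb10, at -0.17 and -0.43.

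Crebbp itself had values of 11.24, 11.34 and 11.20 in knockout tumours, against 11.80, 11.76 and 11.70 in wild type tumours, a change of -0.50 (SE 0.09, limma adjusted p = 0.0948, exact two-sided permutation p = 0.1, the smallest that 3 against 3 tumours allow). The deleted exons are not named in the labels, and the feature may hold probes outside them. All 3 knockout tumours carried the female and all 3 wild type tumours the male pattern of sex-linked transcripts (Xist at 12.26 to 12.45 in knockout and at 5.13 to 5.74 in wild type tumours), so every value given here compares sex as well as genotype, and the 2 cannot be told apart. Xist in wild type tumours and 3 Y-linked genes in knockout tumours had levels of 4.31 to 5.74, which serve as a guide to an absent transcript.

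The tumours expressed the markers of their lineage. The 7 markers of granule neuron progenitors and Sonic hedgehog tumours (Atoh1, Gli1, Ptch1, Zic1, Barhl1, Pax6 and Mycn) were all above the level of absent genes, with summed linear levels of 19319 to 20864 in knockout and 20182 to 22233 in wild type tumours. Markers of Purkinje cells (3 of 5 measured) summed to 958 to 3415 in knockout and 448 to 1278 in wild type tumours, and those of microglia and macrophages (5 of 5) to 2865 to 3400 in knockout and 3345 to 4083 in wild type tumours. The 6 astrocyte and Bergmann glia markers summed to 9349 to 9350 in knockout and 5081 to 10435 in wild type tumours, and the 5 of mature granule neurons to 2888 to 5872 in knockout and 3191 to 4070 in wild type tumours. The 4 measured oligodendrocyte markers summed to 1748 to 2338 in knockout and 2029 to 2926 in wild type tumours, and the 4 of endothelium to 1081 to 1311 in knockout and 1083 to 1303 in wild type tumours. The 1 blood marker measured of 3 was at 57 to 75 in knockout and 51 to 57 in wild type tumours. The ranges of the sums overlapped in all of these, and no measured marker of the 8 lists lay at the level of absent genes in all tumours.

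Single markers differed more than the sums, though none passed the adjusted threshold. Gabra6, a receptor subunit of mature granule neurons, had 10.35, 7.74 and 10.49 in knockout tumours, against 5.33, 6.58 and 8.53 in wild type tumours, a change of 2.72 (SE 0.93, adjusted p = 0.276). Cbln3, of the same cells, had a change of 2.29 (SE 0.65, adjusted p = 0.21). In both, knockout replicates 1 and 3 were the highest tumours and knockout replicate 2 lay within the wild type range. Neurod1, a factor of differentiating granule neurons, had 8.10, 7.89 and 8.15 in knockout tumours, against 9.33, 9.58 and 8.64 in wild type tumours, a change of -1.14 (SE 0.23, adjusted p = 0.121) without overlap. The other granule neuron markers, Cbln1 and Rbfox3, had changes of -0.13 and -0.05 with overlapping groups. Of the 5 markers of this list, 2 had positive and 3 negative changes. The Purkinje cell genes Calb1, Car8 and Ppp1r17 had changes of 2.42, 1.16 and 1.04 with overlapping groups. Of the 7 progenitor and Sonic hedgehog markers, the groups did not overlap in 5 (19.6% of all genes), with Gli1 and Ptch1 higher and Zic1, Barhl1 and Mycn lower in the knockout. Of the 5 microglia markers they did not overlap in 2, C1qa and Cx3cr1, both lower. The part of these cells and of their maturation in the subunit levels was not tested. In a bulk tumour, fewer cells of a type and less RNA per cell cannot be told apart.

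The 5′ ends of the genes were read for the letters of transcription factors known to act on this gene set, and of the cyclic AMP response element (CRE) that CREB binds. RefSeq promoters (GRCm38.p6, 250 bases before to 50 after the start) were matched to 64 of the 79 genes, with 69 starts. The NRF1 consensus was in 16 of the 69, or 23.2%, against 4.60% of all 32851 promoters and 6.46% of the 20611 promoters of genes tested. CCGGAAG (GABPA) was in 17, or 24.6%, against 8.86% of all promoters and 11.4% of those of genes tested. AAGATGG (YY1) was in 10, or 14.5%, against 6.34% and 6.35% of the same promoters. The full CRE, TGACGTCA, was in 3, or 4.35%, against 1.79% and 2.32%, and its core TGACG, which lies within the full element, in 26, or 37.7%, against 20.8% and 24.2%. Both strands were searched, and a match is a description of the letters and not a bound site.

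Promoters are printed for 7 genes as examples, picked after their values and motifs were seen. Ndufa3, Ndufb10, Sdha, Uqcrh, Cox7a1 and Atp5c1 are genes whose groups did not overlap, and Ndufa11 is one of the 3 with a full CRE (the others are Ndufa10 and Uqcrfs1). Capitals mark the letters of any of these motifs on either strand, and each sequence runs 5′ to 3′ along the gene.
Ndufa3 (chr7:3617123-3617422, plus strand): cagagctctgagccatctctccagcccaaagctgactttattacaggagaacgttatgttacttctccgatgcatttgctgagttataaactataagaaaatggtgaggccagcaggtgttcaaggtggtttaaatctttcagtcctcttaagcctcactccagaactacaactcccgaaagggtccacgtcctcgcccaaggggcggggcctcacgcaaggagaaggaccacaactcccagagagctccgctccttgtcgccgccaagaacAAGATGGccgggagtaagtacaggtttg
Ndufb10 (chr17:24724374-24724673, minus strand): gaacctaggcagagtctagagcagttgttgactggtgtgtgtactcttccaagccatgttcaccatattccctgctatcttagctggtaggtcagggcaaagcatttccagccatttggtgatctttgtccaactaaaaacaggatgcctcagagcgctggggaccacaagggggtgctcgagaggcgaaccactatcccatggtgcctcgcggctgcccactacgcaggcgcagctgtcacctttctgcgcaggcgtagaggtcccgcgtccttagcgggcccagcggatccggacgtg
Ndufa11 (chr17:56717512-56717811, plus strand): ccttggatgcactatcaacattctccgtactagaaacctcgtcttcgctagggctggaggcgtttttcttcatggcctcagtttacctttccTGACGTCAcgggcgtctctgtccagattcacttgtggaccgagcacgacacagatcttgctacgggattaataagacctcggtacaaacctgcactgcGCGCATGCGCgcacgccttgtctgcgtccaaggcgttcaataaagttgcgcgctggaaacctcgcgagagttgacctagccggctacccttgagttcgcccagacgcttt
Sdha (chr13:74350191-74350490, minus strand): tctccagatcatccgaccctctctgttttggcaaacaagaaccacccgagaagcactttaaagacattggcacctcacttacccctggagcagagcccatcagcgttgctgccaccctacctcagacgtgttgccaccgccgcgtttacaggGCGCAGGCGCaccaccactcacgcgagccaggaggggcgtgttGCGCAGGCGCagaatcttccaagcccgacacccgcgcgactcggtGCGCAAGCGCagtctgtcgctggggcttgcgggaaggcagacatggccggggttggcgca
Uqcrh (chr4:116075021-116075320, minus strand): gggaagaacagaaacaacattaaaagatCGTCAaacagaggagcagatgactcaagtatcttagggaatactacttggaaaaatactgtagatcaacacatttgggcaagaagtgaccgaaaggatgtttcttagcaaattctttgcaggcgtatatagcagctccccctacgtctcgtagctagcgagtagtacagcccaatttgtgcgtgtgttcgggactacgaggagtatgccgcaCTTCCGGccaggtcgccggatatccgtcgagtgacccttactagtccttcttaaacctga
Cox7a1 (chr7:30183921-30184220, plus strand): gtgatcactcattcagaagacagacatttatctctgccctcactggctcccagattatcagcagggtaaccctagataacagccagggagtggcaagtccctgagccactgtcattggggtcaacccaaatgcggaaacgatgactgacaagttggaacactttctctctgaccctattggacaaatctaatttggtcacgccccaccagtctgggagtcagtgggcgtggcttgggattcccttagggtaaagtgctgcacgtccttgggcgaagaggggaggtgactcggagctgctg
Atp5c1 (chr2:10080383-10080682, minus strand): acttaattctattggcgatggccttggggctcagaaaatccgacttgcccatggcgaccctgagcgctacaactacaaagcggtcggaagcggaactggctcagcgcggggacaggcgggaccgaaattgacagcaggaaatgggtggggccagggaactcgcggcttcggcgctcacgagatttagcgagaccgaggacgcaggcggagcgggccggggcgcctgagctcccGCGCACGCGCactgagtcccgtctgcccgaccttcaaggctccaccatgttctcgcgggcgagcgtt

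Sdha holds 3 NRF1 matches, whose first bases lie at -98, -55 and -10, counted from the base before the start as -1. Uqcrh holds the GABPA letters at -10 and a TGACG core at -222, and Ndufa3 the YY1 letters at 23, counted from the start as 1. Ndufa11 holds the full CRE at -158 and an NRF1 match on both strands at -60. Atp5c1 has 2 annotated starts, of which the one with an NRF1 match is printed, while Ndufb10 and Cox7a1 hold none of these letters in the window. Genes with an NRF1 match had a median change of 0.09 and those without one 0.05, and for GABPA the medians were 0.04 and 0.06. For the full CRE they were -0.11 over the 3 genes and 0.06 over the others. These medians are given as values only.

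Complex I, the NADH dehydrogenase, is the largest of the complexes, with a matrix arm that holds the redox centres and a membrane arm that pumps protons. Of its 31 genes, 21 had positive and 10 negative changes, and none passed the adjusted threshold. The groups did not overlap in 7 genes (22.6%, against 19.6% of all genes), 6 higher and 1 lower. Of these, 6 encode accessory subunits of the membrane arm, a class that holds 17 of the 31 genes. Of the core subunits, which include the carriers of the flavin and the iron-sulfur clusters, the 6 measured (Ndufs1, Ndufs3, Ndufs7, Ndufs8, Ndufv1 and Ndufv2) had changes from -0.06 to 0.15 and overlapping groups. Each of the 6 had a 95% interval within 0.5 on either side of 0. The 8 accessory subunits of the matrix arm had a median of 0.09 and the 17 of the membrane arm one of 0.06.

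Ndufa3 (chromosome 7), a small subunit of the membrane arm, had levels of 11.63, 11.65 and 11.56 in knockout tumours, against 11.29, 11.01 and 11.34 in wild type tumours. The knockout values lay close together and wild type replicate 2 was the lowest. The change was 0.40 (SE 0.11, adjusted p = 0.201), a level 1.32 times that of wild type. Ndufb3 (chromosome 1), also of the membrane arm, had 8.46, 8.42 and 8.48 in knockout tumours, against 8.22, 8.10 and 8.25 in wild type tumours. The change of 0.26 (SE 0.09, adjusted p = 0.262) exceeded the spread within either group. Ndufa6 (chromosome 15), an accessory subunit of the matrix arm, had 10.44, 10.41 and 10.36 in knockout tumours, against 10.25, 10.01 and 10.20 in wild type tumours, with a change of 0.25 (SE 0.10, adjusted p = 0.326).

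Ndufb10 (chromosome 17), a membrane arm subunit, was the single complex I gene with lower values throughout. It had 8.33, 8.48 and 8.05 in knockout tumours, against 8.59, 8.84 and 8.71 in wild type tumours. Knockout replicate 3 was the lowest, and the change was -0.43 (SE 0.13, adjusted p = 0.236), so that wild type exceeded knockout 1.34-fold. Of the other subunits of the same letter, Ndufb7, Ndufb8 and Ndufb9 had changes of -0.16, -0.04 and -0.09 with overlapping groups. Ndufb3, Ndufb6 and Ndufb11 had positive changes of 0.26, 0.03 and 0.06. Ndufb5, also of this letter, lay higher in each knockout tumour, as did Ndufc1 and Ndufa10, by means of 0.17, 0.14 and 0.07. The plot of levels by tumour shows these genes beside the others whose groups did not overlap.

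**Figure D2:**
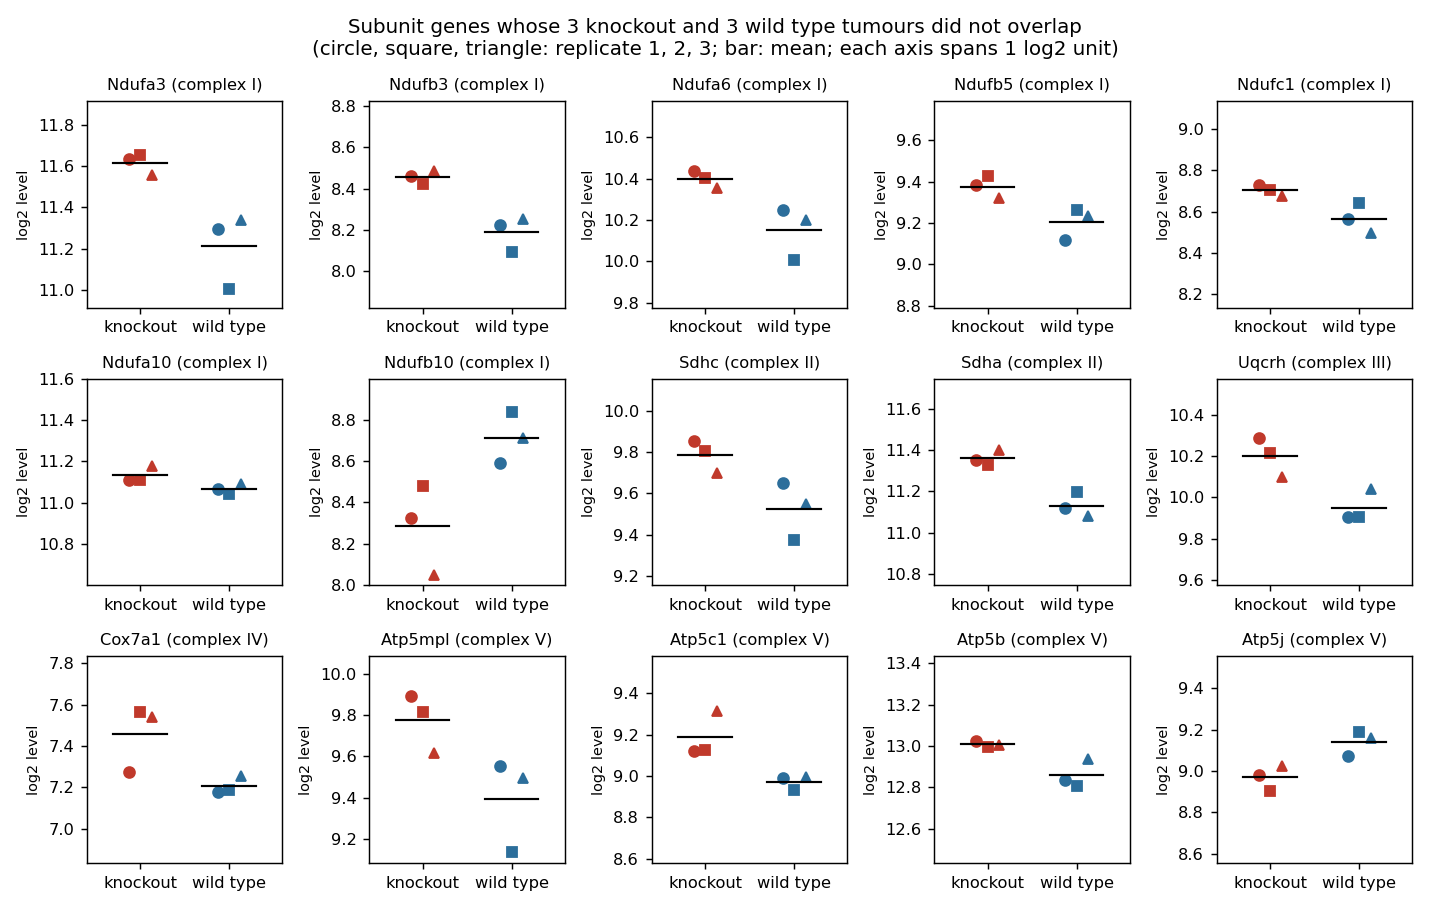
Log2 level in each tumour of the 15 subunit genes whose groups did not overlap, with Crebbp knockout (red) left of wild type (blue), symbols for replicates and a bar for the mean of 3. Each axis spans 1 log2 unit, and the gaps between groups are small beside it, as in Ndufa10 with means of 11.13 and 11.07.

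Complex II, succinate dehydrogenase, is encoded by nuclear genes alone and is also an enzyme of the citric acid cycle. All 4 of its genes had positive changes (50.9% of all genes were positive), and none passed the adjusted threshold. Their median was 0.14 (0.11 with arrays centred on the median of all genes). Sdha (chromosome 13), the flavoprotein that oxidises succinate, had 11.35, 11.33 and 11.40 in knockout tumours, against 11.12, 11.20 and 11.08 in wild type tumours, a change of 0.23 (SE 0.08, adjusted p = 0.303). Sdhc (chromosome 1), a membrane anchor, had 9.85, 9.80 and 9.70 in knockout tumours, against 9.65, 9.37 and 9.55 in wild type tumours, a change of 0.26 (SE 0.10, adjusted p = 0.33). The groups did not overlap in either gene. Sdhb, the iron-sulfur subunit, and Sdhd, the other anchor, had changes of 0.06 (SE 0.09) and 0.04 (SE 0.09) with overlapping groups.

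Complex III, the cytochrome bc1 complex, passes electrons from ubiquinol to cytochrome c. Uqcrh (chromosome 4), the hinge protein beside cytochrome c1, had 10.29, 10.22 and 10.10 in knockout tumours, against 9.90, 9.90 and 10.04 in wild type tumours. Its groups did not overlap, though knockout replicate 3 and wild type replicate 3 lay close, and the change was 0.25 (SE 0.09, adjusted p = 0.311). The other 6 genes had overlapping groups, so that the share without overlap was 14.3%, against 19.6% of all genes. The core proteins Uqcrc1 and Uqcrc2 had changes of 0.01 and 0.09, the Rieske iron-sulfur protein Uqcrfs1 one of -0.11, and Uqcrq, Uqcrb and Uqcr11 changes of 0.11, 0.04 and -0.11. All 7 genes had 95% intervals within 0.5 on either side of 0.

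Complex IV, cytochrome c oxidase, reduces oxygen and has several subunits with tissue-specific isoforms. Of its 18 genes, 10 had positive and 8 negative changes, and the groups did not overlap in 1 (5.56%, against 19.6% of all genes). That gene was Cox7a1 (chromosome 7), the isoform of heart and skeletal muscle, with 7.27, 7.57 and 7.54 in knockout tumours, against 7.18, 7.19 and 7.26 in wild type tumours. Knockout replicate 1 lay just above the highest wild type value, and the change was 0.25 (SE 0.11, adjusted p = 0.348). Its widely expressed partner Cox7a2 had a change of 0.05 (SE 0.10) and Cox7a2l, a supercomplex assembly factor of the same family, one of 0.00 (SE 0.09). The 5 muscle markers summed to 480 to 548 in knockout and 431 to 536 in wild type tumours, none passed the threshold, and Myh1 and Myh6 lay at the level of absent genes in all tumours.

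No isoform set, that of Cox7a1 included, showed a switch that these tumours could resolve. For subunit 4, Cox4i1 had a change of 0.04 (SE 0.12) and Cox4i2, an isoform known from lung, one of -0.08 (SE 0.12). For subunit 6a, the widely expressed Cox6a1 had a change of -0.04 and the muscle isoform Cox6a2 one of 0.05, with 95% intervals of -0.29 to 0.21 and -0.19 to 0.29. Subunit 6b gave 0.12 for Cox6b1 and -0.14 for the testis isoform Cox6b2. For subunit 8, Cox8a had a change of 0.28 (SE 0.17), the muscle isoform Cox8b one of 0.20 (SE 0.14) and the testis isoform Cox8c one of -0.07 (SE 0.12). Cox8c and Cox7b2 lay at or below the level of absent genes in all 6 tumours, as did both pseudogenes, and their changes are not interpretable as expression.

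Wild type replicate 2 had the lowest value of several complex IV genes. Cox8a had 12.38, 12.27 and 12.23 in knockout tumours, against 12.15, 11.63 and 12.27 in wild type tumours. Cox5b, a structural subunit on the matrix side, had 10.88, 10.68 and 10.63 in knockout tumours, against 10.44, 10.12 and 10.82 in wild type tumours, a change of 0.27 (SE 0.18). In both genes 1 wild type tumour lay far below the others and another reached the knockout range. Cox5a, its partner subunit, had a change of -0.17 (SE 0.12), Cox7c one of -0.13 (SE 0.19), and Ndufa4 one of 0.02 (SE 0.09), all with overlapping groups.

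Complex V couples the return of protons through its membrane part to the synthesis of ATP in its catalytic head. Of its 17 genes, 13 had positive and 4 negative changes, and the groups did not overlap in 4 (23.5%, against 19.6% of all genes). Atp5mpl (chromosome 12), a small membrane subunit, had 9.89, 9.81 and 9.61 in knockout tumours, against 9.55, 9.13 and 9.49 in wild type tumours, a change of 0.38 (SE 0.14, adjusted p = 0.293). Wild type replicate 2 was again the lowest. Atp5c1 (chromosome 2), the rotating central shaft, had 9.12, 9.13 and 9.32 in knockout tumours, against 8.99, 8.93 and 8.99 in wild type tumours, a change of 0.22 (SE 0.09, adjusted p = 0.364). Atp5b (chromosome 10), the catalytic beta subunit, had 13.03, 12.99 and 13.01 in knockout tumours, against 12.83, 12.81 and 12.94 in wild type tumours, a change of 0.15 (SE 0.08, adjusted p = 0.493). The knockout values of Atp5b were nearly the same in the 3 tumours.

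Atp5j (chromosome 16), coupling factor 6 of the peripheral stalk, was the complex V gene with lower values in each knockout tumour, at 8.98, 8.90 and 9.02 against 9.07, 9.19 and 9.16 in wild type tumours. The change was -0.17 (SE 0.09, adjusted p = 0.44). The other stalk subunits Atp5pb, Atp5o and Atp5h had changes of 0.14, 0.04 and 0.04 with overlapping groups. Atp5g1, Atp5g2 and Atp5g3 encode the same mature subunit c of the rotor ring with different import sequences, and had changes of -0.06, 0.06 and 0.10. The alpha subunit gene Atp5a1 had a change of 0.10 (SE 0.09). Many subunit genes have processed pseudogenes of similar sequence, and signal from such copies cannot be told apart from that of the gene.

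Of the 79 genes, 3 are X-linked, and none of them passed. Ndufa1 had 10.001, 9.93 and 9.70 in knockout tumours, against 9.60, 9.44 and 9.86 in wild type tumours, a change of 0.24 (SE 0.13). Cox7b had a change of 0.25 (SE 0.19) and Ndufb11 one of 0.06 (SE 0.10). The groups overlapped in each. Over the 76 other genes the median change was 0.04, against 0.05 over all 79.

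Single tumours stood out within the groups. Wild type replicate 2 had the lowest value of the 6 in 30 of 79 genes, or 38.0%, against 17.6% of all genes, and knockout replicate 1 had the highest in 28, or 35.4%, against 14.9% of all genes. The median deviation of the 79 genes from their mean over the tumours was 0.09, 0.04 and 0.01 in knockout tumours, against -0.05, -0.06 and 0.01 in wild type tumours. Wild type replicate 3 thus lay above knockout replicate 3, and the groups overlapped. They also overlapped in complexes I, III, IV and V, and did not overlap in complex II. With single tumours left out, the number of positive changes stayed at 48 to 59 of 79. The number of genes with higher values at an unadjusted p under 0.05, which was 8 with all tumours, ranged from 2 to 11 when single tumours were left out. It was 2 when knockout replicate 2 or wild type replicate 2 was omitted, 3 when knockout replicate 1 was, and 5 when knockout replicate 3 was. The number whose groups did not overlap with higher values, 13, was 14, 17 and 22 with knockout replicate 1, 2 or 3 left out. It was 26 with wild type replicate 3 left out. The number with lower values, 2, was 8 with knockout replicate 1 left out, 4 with knockout replicate 2 and 5 with wild type replicate 1 left out. With 2 tumours in 1 group fewer values must lie apart, and the shares over all genes in these settings are not given here. The number with adjusted p under 0.05 was 0 in each of these cases.

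**Figure D3:**
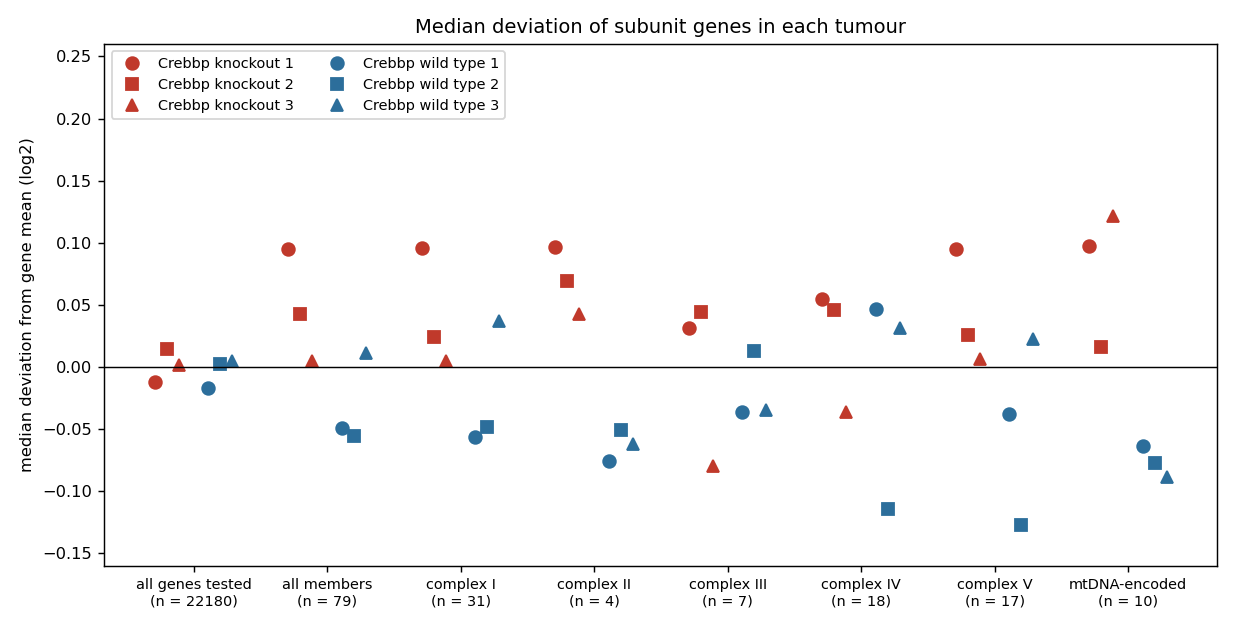
Median deviation (log2) of each gene set from the gene means over 6 tumours, with Crebbp knockout (red) left of wild type (blue) and symbols for replicates. For all 79 genes the tumours lie between -0.06 and 0.09, with overlap between the groups, while the median of all 22180 genes stays between -0.02 and 0.01.

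The array holds 2 features for 9 of the genes, and in some of them the 2 disagreed. The text above uses the feature with the higher mean. Below, the feature with the lower mean is called the dimmer one. In Atp5d, the delta subunit of the catalytic head, the brighter feature had 9.69, 9.55 and 9.46 in knockout tumours, against 9.72, 9.45 and 9.57 in wild type tumours, a change of -0.01 (SE 0.11). The dimmer feature had 8.75, 8.09 and 7.36 in knockout tumours, against 10.003, 9.67 and 9.34 in wild type tumours, a change of -1.61 (SE 0.33, adjusted p = 0.105 over 23521 features). Its wild type mean, 9.67, lay above the 9.58 of the feature used, so it ranks as dimmer only through its knockout values. The knockout values of the dimmer feature were spread over more than 1 log2 unit and lay below every wild type value, which the brighter feature did not show.

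Ndufa8, a membrane arm subunit of complex I, showed the same disagreement. Its brighter feature had a change of 0.20 (SE 0.13), while the dimmer one had 8.35, 7.99 and 7.59 in knockout tumours, against 9.03, 8.97 and 8.82 in wild type tumours, a change of -0.96 (SE 0.18, adjusted p = 0.0922 over features). In Ndufa12, of the matrix arm, the changes were 0.12 (SE 0.12) and -0.73 (SE 0.15, adjusted p = 0.104). In Atp5e, the epsilon subunit, they were -0.08 (SE 0.18) and -0.54 (SE 0.14, adjusted p = 0.156), and the groups of the dimmer feature did not overlap in these 4 genes. Knockout replicate 3 had the lowest value of the dimmer feature in each of the 4. The features of Atp5g2, Atp5h, Cox5b, Cox7b and Ndufa11 overlapped between groups in both cases. A gap over 0.5 between the changes of a gene's features was seen in 3 of the 9 genes, and in 18.6% of 1341 such features over all genes. The annotation does not say which part of a gene a feature covers, and with the mean of both features no subunit gene passed either, with the lowest adjusted p, 0.171, in Atp5d.

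**Figure D4:**
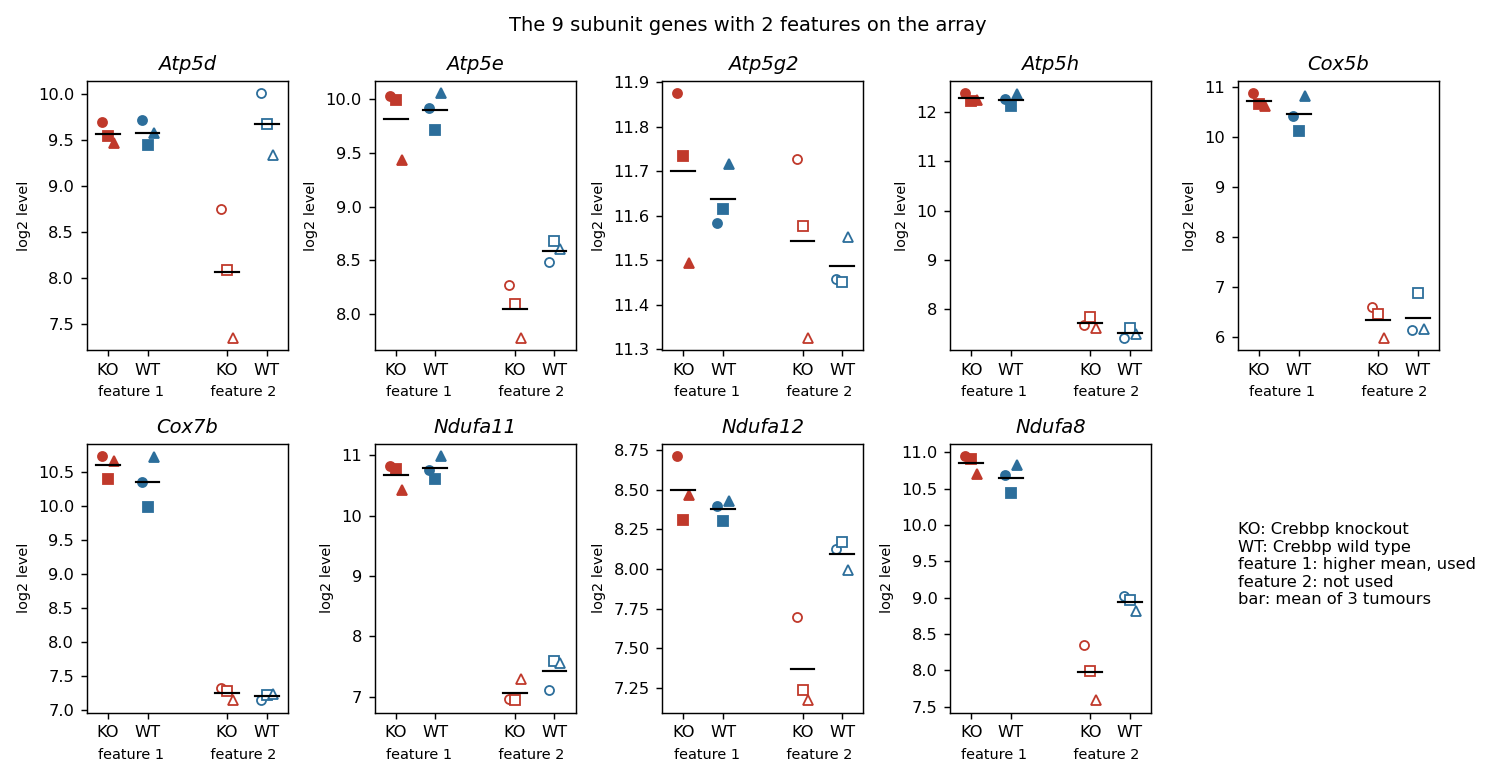
Log2 level in each tumour of both features of the 9 genes that have 2, with the brighter feature (filled) left of the dimmer (open), Crebbp knockout (red) left of wild type (blue), and bars for means of 3. The dimmer features of Atp5d, Ndufa8, Ndufa12 and Atp5e lie lower in all 3 knockout tumours, while their brighter features overlap.

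The subunits made from mitochondrial DNA were set beside the nuclear genes. Of the 13, 10 were measured under 1 symbol, and 0 passed an adjusted p of 0.05 while 2 had an unadjusted p under 0.05 in limma. The changes were positive in 9, with a median of 0.16 (0.13 with arrays centred and 0.08 with quantile normalization repeated). The groups did not overlap in 8 of 10, all higher in the knockout (10.2% of all genes). ND2 had 13.68, 13.53 and 13.64 in knockout tumours, against 13.36, 13.34 and 13.37 in wild type tumours, a change of 0.26 (SE 0.09, adjusted p = 0.263), and ND4L one of 0.24 (SE 0.09, adjusted p = 0.29). ND6, which is read from the opposite strand to the others, was the exception in sign, with 11.42, 11.56 and 11.71 in knockout tumours, against 11.63, 11.70 and 11.56 in wild type tumours. The 10 share 2 precursor transcripts and are not independent, and the 9 that were positive had levels over 13, near the highest value on the arrays, 14.44.

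**Figure D5:**
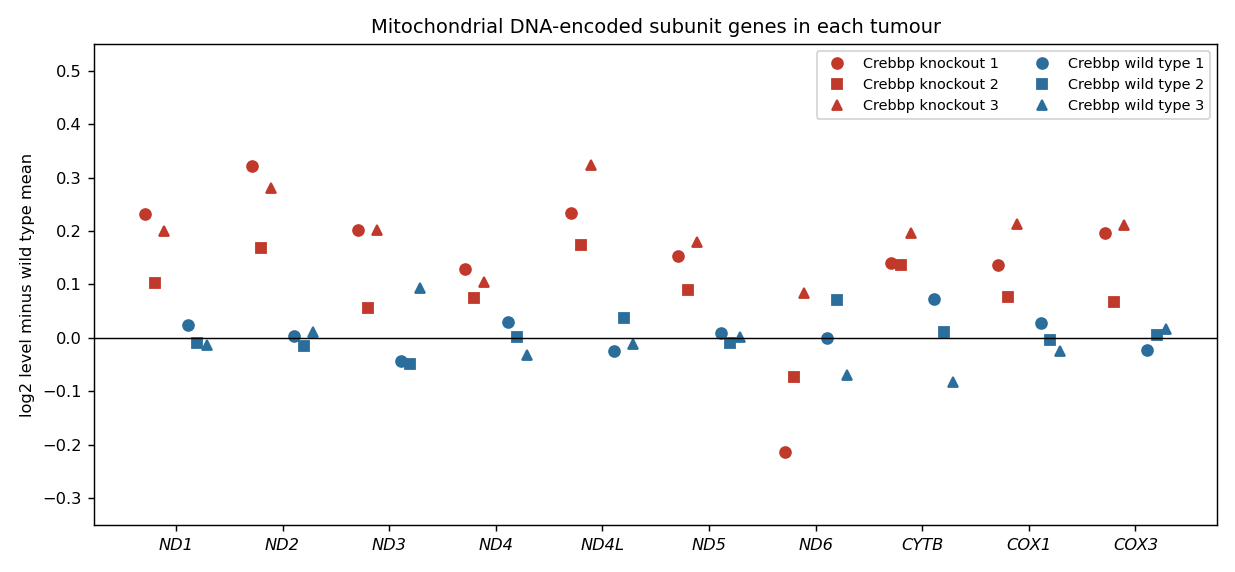
Log2 level of the 10 mitochondrial DNA-encoded subunit genes in each tumour, minus the wild type mean of the gene, with Crebbp knockout (red) left of wild type (blue). The groups do not overlap in 8 genes and overlap in ND3 and ND6.

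Genes that serve the complexes without being part of the 79 were counted in lists. Of 15 measured assembly factors of complex I, 11 had positive changes, with 5 at an unadjusted p under 0.05 (33.3%, against 13.8% of all genes), 7 whose groups did not overlap (46.7%, against 19.6%) and 0 past the adjusted threshold. Timmdc1, a membrane arm assembly factor, had levels of 10.03 ± 0.06 in knockout and 9.76 ± 0.01 in wild type tumours (SD, n = 3 each), with a change of 0.27 (SE 0.08, adjusted p = 0.238), and Tmem126b, of the same assembly complex, one of 0.27 (SE 0.10, adjusted p = 0.284). Of 17 complex IV assembly factors 11 were positive and 0 passed, and the 2 with the smallest p were Cmc1 at 0.26 and Cox15, an enzyme of heme A synthesis, at 0.24. The 4 of complex II, 6 of complex III and 3 of complex V had medians of -0.06, 0.10 and 0.10. The smallest p were those of Sdhaf1 and Sdhaf4 in complex II, both with a change of -0.12, Uqcc3 (0.20) and Uqcc1 (0.23) in complex III, and Tmem70 (0.11) and Atpaf1 (0.05) in complex V. The subunits that the symbols miss gave 0.13 for Ndufab1, the acyl carrier protein of complex I, and 0.10 for Cyc1, cytochrome c1, while cytochrome c itself (Cycs) gave 0.16. Ndufa4l2, a hypoxia-induced relative of Ndufa4, gave -0.19. Of 12 citric acid cycle genes 11 were positive, with a median of 0.07. Idh3g, a subunit of isocitrate dehydrogenase, had a change of 0.18 (SE 0.10, adjusted p = 0.463), and citrate synthase (Cs) had a change of 0.14 (SE 0.09, adjusted p = 0.533).

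Of 12 regulators of mitochondrial biogenesis, 6 had positive and 6 negative changes, and 0 passed. Ppargc1a, the coactivator PGC-1alpha, had 7.99, 7.34 and 7.93 in knockout tumours, against 7.19, 6.78 and 7.46 in wild type tumours, a change of 0.61 (SE 0.22, adjusted p = 0.294). Knockout replicate 2 lay within the wild type range. Yy1 had 10.32 ± 0.09 in knockout and 10.59 ± 0.12 in wild type tumours (SD, n = 3 each), a change of -0.27 (SE 0.10, adjusted p = 0.308), with groups that did not overlap. The groups did not overlap in 4 of the 12, all lower in the knockout (9.43% of all genes). Nrf1 had a change of 0.01 (SE 0.09) and Gabpa one of -0.13 (SE 0.10). Over all 84 genes of these lists, mitochondrial DNA included, 0 passed and 12 had an unadjusted p under 0.05 (14.3%, against 13.8% of all genes). Their groups did not overlap in 26, or 31.0%, against 19.6% of all genes. Of these 26, 8 were among the 10 mitochondrial DNA genes, which share precursor transcripts and are not independent. In the brighter 50% of genes the groups did not overlap in 2886 of 11090, a larger share than in all genes. The 31.0% thus cannot be read as an excess over 84 independent genes of like level. The median change of the 84 genes was 0.09.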

How the data were processed

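The table deposited by the authors holds log2 levels. The submitters' processing notes name RMA and oligo. Versions of these tools and the genome build of the array were not given in the sources used here. Background subtraction, quantile normalization and probe summary by RMA set the probe values of all arrays to 1 distribution, so a shift shared by most genes would be removed and changes of dim features are compressed. The table held 41345 features and array medians of 6.91 to 7.00, and Pearson correlations across genes between arrays were 0.984 to 0.993. With no read depth on an array, precision depends on how many there are, here 3 per group.

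Features with 1 symbol (23521) gave 22180 genes, using the feature with the highest mean. Chromosomes came from RefSeq (GRCm38.p6). The deposited log2 values were tested with limma 3.58.1 in R 4.3.3 (lmFit, eBayes, two-sided, no filter on level). Adjustment (Benjamini-Hochberg) ran across the 22180 genes. The script was tested on simulated data. Subunit lists are described by counts and medians without a test. The genes and lists were chosen with earlier results of these data known. Genes named in detail were those whose groups did not overlap (up to 3 in each direction per complex), all of complex II, isoform pairs, X-linked genes, Ndufa4 and the 2 smallest p-values of each other list. Others named were chosen after their values were seen.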

Additional observations from a re-analysis of the deposited data

How the results depend on the processing

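No subunit gene passed an adjusted p of 0.05 under any of the 15 alternatives (array centring or quantile normalization, dropping dim genes, an intensity trend or robust variance, array weights, averaged features, a replicate block, no X and Y genes, each tumour omitted). The lowest adjusted p of a subunit gene ranged from 0.117 (Ndufa3, with an intensity trend) to 0.427 (Ndufa3, without wild type replicate 2). With arrays centred on the median of all genes, 5 genes were higher at an unadjusted p under 0.05 in place of 8, and the median change of complex II was 0.11 in place of 0.14. Repeated quantile normalization gave 4 genes whose groups did not overlap with lower values in place of 2. With the mean of a gene's features 7 genes did so and 4 were lower at an unadjusted p under 0.05 in place of 1, since the dimmer features enter. Replicate numbers did not pair the tumours (correlations of deviations of -0.03, 0.05 and 0.10 for numbers 1, 2 and 3), and with a replicate block 4 genes were higher at an unadjusted p under 0.05. Leaving out each tumour gave 2 to 11 such higher and 1 to 2 lower genes, and 14 to 26 higher and 3 to 8 lower genes whose groups did not overlap. For these unadjusted and non-overlap counts, the shares over all genes in the same settings are not given here. Whether the subunit genes moved more than all genes did thus cannot be read from them. Over the whole array 46 genes passed, against 107 with an intensity trend, 68 on the brighter 50% of genes, 12 with the replicate block and 4 to 128 with single tumours left out. The Crebbp probe set (-0.50) crossed the threshold on the brighter 50% of genes (adjusted p = 0.0486) and with an intensity trend (adjusted p = 0.0263). Of 33 genes named by the rule, 9 turned sign under some alternative, none of them past the threshold. Ndufa4 was at -0.0063 with centred arrays and -0.0251 with repeated quantile normalization, and Cox7a2l at 0.0053 with the same normalization and 0.0070 with array weights. With single tumours left out, the ranges were -0.0219 to 0.0781 for Ndufa4, -0.0517 to 0.0398 for Cox7a2l, -0.0034 to 0.1343 for Cox7a2, -0.0243 to 0.1102 for Cox6a2, -0.0162 to 0.1310 for Cox4i1, -0.0922 to 0.0458 for Cox6a1, -0.1607 to 0.0423 for Cox8c, -0.0247 to 0.1661 for Atp5g2 and -0.1600 to 0.0111 for Atp5g1. The limits are 3 tumours per group, 1 sex per genotype, and signal near background for Cox8c, Cox7b2 and the pseudogenes.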

Other observations

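The 10 array features that name a subunit gene together with another symbol were not tested. The brighter feature of Ndufs6 and its copy Ndufs6b, which encode a zinc-binding accessory subunit of complex I, had 10.74, 10.54 and 10.34 in knockout tumours, against 10.21, 10.09 and 10.13 in wild type tumours, a difference of 0.40. The dimmer one had 7.94, 8.08 and 7.99 in knockout tumours, against 7.73, 7.63 and 7.58 in wild type tumours, a difference of 0.36. In both, each knockout tumour lay above each wild type tumour. The feature of Uqcr10, a small subunit of complex III, which also names Gm6293, had 8.68, 8.51 and 8.55 in knockout tumours, against 8.44, 8.04 and 8.29 in wild type tumours. The feature of Uqcrb and Gm10767 lay lower in the knockout tumours, at 6.73, 7.01 and 6.93 against 7.19, 7.15 and 7.10 in wild type tumours, while the single-symbol feature of Uqcrb had overlapping groups. The feature of Ndufs1 and Ino80dos had 8.09, 7.93 and 8.05 in knockout tumours, against 7.89, 7.57 and 7.75 in wild type tumours, a difference of 0.28. The single-symbol feature of Ndufs1 had overlapping groups. The feature of Ndufs5 and Ndufs5-ps had a difference of -0.25 with overlapping groups, while the single-symbol feature of Ndufs5 had a change of 0.14. These features were picked after their values were seen.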
